A study of Mus musculus with 18 samples.

Results

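The genes described here encode 8 chains of the interstitial collagens: Col1a1 (ENSMUSG00000001506.10) and Col1a2 (ENSMUSG00000029661.16) of type I, Col3a1 (ENSMUSG00000026043.18) of type III, Col5a1 (ENSMUSG00000026837.15) and Col5a2 (ENSMUSG00000026042.16) of type V, and Col6a1 (ENSMUSG00000001119.7), Col6a2 (ENSMUSG00000020241.13) and Col6a3 (ENSMUSG00000048126.16) of type VI. They were picked by these identifiers and make up 8 of the 51826 features in the deposited tables. The choice was made with counts of these same libraries known, over both days and all 3 lines, so every value, difference and call given for these genes is a description and no p-value is attached to them. All 8 passed the filter on low counts. Col3a1, Col5a2 and the 3 type VI chains had 20 counts or fewer in every day 0 library and passed through their day 10 libraries.

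The assay was ribosome profiling, which counts the short pieces of mRNA (footprints) left under ribosomes after nuclease digestion. The cells were the mouse embryonic stem cell line E14, as WT, and Quaking or Sam68 knockout (KO) lines made in its background; both proteins bind RNA and belong to the STAR family. Each line was taken as stem cells (day 0) and as embryoid bodies, aggregates that form early embryonic cell types, after 10 days of differentiation (day 10), and all cultures received cycloheximide to hold ribosomes on mRNA before lysis. This gave 6 groups of 3 libraries, which the series calls biological replicates, so the spread reported is that between these libraries; whether a knockout line stems from 1 clone is not stated in the sources used here.

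Total counts ran from 988210 to 10646768 per library. The 10 largest features took 7.01% to 21.3% of the counts at day 0 and 24.6% to 70.4% at day 10, and 3 day 10 libraries stood apart with more than 60% in those features: WT replicate 3 and Sam68 KO replicates 2 and 3. WT replicate 3 had the least usable depth, where 3 counts correspond to 7.05 CPM (counts scaled for library size, here with TMM). By the sample descriptions, the day 0 libraries of WT and Quaking KO belonged to pool MIX_1, the WT day 10 and Sam68 KO day 0 libraries to pool MIX_2, and the day 10 libraries of both knockouts to pool MIX_3. Only Quaking KO against WT at day 0 and Sam68 KO against Quaking KO at day 10 were therefore compared within a pool, and in all other comparisons pool and group cannot be told apart. The files name features by Ensembl identifier alone and the reference table pairs none of these with a symbol, so the knocked-out genes, cell type markers and the other genes of the collagen pathway were not analysed here.

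Collagens are secreted proteins of 3 chains wound into a helix. Types I and III form the banded fibrils of connective tissue, type V co-assembles with type I and limits the width of the fibril, and type VI forms beaded microfilaments close to cell surfaces. Type I is mostly built from 2 chains of Col1a1 and 1 of Col1a2, type III from Col3a1 alone, type V mostly from 2 chains of Col5a1 and 1 of Col5a2, and type VI from 1 chain each of Col6a1, Col6a2 and Col6a3. Fibroblasts and other mesenchymal cells are their main producers, and undifferentiated stem cells make little of them.

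The genes lie on 5 chromosomes of the GRCm38 build by RefSeq's annotation. Col1a1 is at chr11:94936224-94953042, Col1a2 at chr6:4505618-4541543 and Col5a1 at chr2:27886381-28039510. Among the other genes are 2 neighbouring pairs. Col3a1 (chr1:45311538-45349706) and Col5a2 (chr1:45374331-45503282) are separated by 24.6 kb with no annotated gene between them, and Col6a2 (chr10:76595756-76623630) and Col6a1 (chr10:76708792-76726044) by 85.2 kb that holds 2 non-coding RNA genes. Col6a3 is on chromosome 1 as well, at chr1:90766860-90844001. Col5a1 alone overlaps another RefSeq gene, the non-coding Gm13372, and since strand use in counting is not given in the sources used here, its counts could include reads of that gene.

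RefSeq start-site windows were found for 6 of the 8 genes, and Col1a1 and Col5a2 had none in the table. The 250 bases upstream of the start are shown for Col1a2, which had fewer footprints in Quaking KO than in WT embryoid bodies, and for Col3a1 and Col6a1, which had more. Capitals mark matches on either strand to CCAAT, to the GC box GGGCGG and to the TATA box TATAAA, motifs that do not overlap one another here, and each sequence reads 5′ to 3′ on the strand of its gene (GRCm38.p6).
Col1a2, plus strand, chr6:4505368-4505617: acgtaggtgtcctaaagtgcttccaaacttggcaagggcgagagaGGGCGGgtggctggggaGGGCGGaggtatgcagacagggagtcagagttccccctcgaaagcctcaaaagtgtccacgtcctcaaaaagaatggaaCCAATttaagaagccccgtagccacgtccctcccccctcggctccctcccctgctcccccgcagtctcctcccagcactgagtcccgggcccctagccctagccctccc
Col3a1, plus strand, chr1:45311288-45311537: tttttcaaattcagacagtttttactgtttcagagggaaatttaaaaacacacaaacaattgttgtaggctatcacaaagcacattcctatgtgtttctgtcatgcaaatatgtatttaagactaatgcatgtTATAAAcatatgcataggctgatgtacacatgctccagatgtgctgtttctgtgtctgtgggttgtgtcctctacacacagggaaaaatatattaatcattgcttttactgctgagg
Col6a1, minus strand, chr10:76726045-76726294: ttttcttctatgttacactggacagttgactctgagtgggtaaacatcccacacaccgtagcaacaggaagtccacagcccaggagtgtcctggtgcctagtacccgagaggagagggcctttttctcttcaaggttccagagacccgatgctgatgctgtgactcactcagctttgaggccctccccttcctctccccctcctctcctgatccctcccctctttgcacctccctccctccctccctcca

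The windows differ in composition. G and C make up 62.0% of the Col1a2 window, 35.2% of the Col3a1 window and 56.0% of the Col6a1 window. They make up 76.4% of the Col5a1 window, 64.4% and 59.2% of the windows of Col6a2 and 57.2% of the Col6a3 window. The median was 52.4% over 32851 windows of the same length in the table. CCAAT was found in the Col1a2 window, where it lies 105 to 109 bases before the start, and in 33.8% of all windows. The GC box was present in 4 of the 7 windows of these genes (Col1a2, Col5a1 and both windows of Col6a2) and in 32.7% of all windows. TATAAA was present in the Col3a1 window, 112 to 117 bases before the start, and in 12.4% of all windows. The windows of Col6a1 and Col6a3 held none of the 3 motifs in these letters.

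All 8 genes had more footprints at day 10 than at day 0 in each line. Together they took 0.00488% ± 0.000607 (SD, n = 3) of all counts in WT, 0.00302% ± 0.00036 in Quaking KO and 0.00387% ± 0.000405 in Sam68 KO at day 0. At day 10 the summed share was 1.17% ± 0.554 in WT, 1.28% ± 0.128 in Quaking KO and 0.507% ± 0.135 in Sam68 KO. The WT and Sam68 KO shares depended on the 3 libraries dominated by few features: WT replicates 1 and 2 were at 1.55% and 1.42% and replicate 3 at 0.536%, while Sam68 KO replicate 1 was at 0.662% and replicates 2 and 3 at 0.419% and 0.44%. With the 10 largest features of each library left out of the total (the collagens themselves kept), the shares were 2.01% ± 0.189, 1.74% ± 0.193 and 1.08% ± 0.147 for WT, Quaking KO and Sam68 KO. The 3 Sam68 KO libraries lay below all others. At day 10 the summed counts were mostly those of Col1a1 and Col3a1 in each line. The share therefore says little of the type VI chains and does not show genes that moved in opposite directions. In bulk embryoid bodies, fewer cells of a type and fewer footprints per cell cannot be told apart, and a footprint count does not separate the amount of an mRNA from how often it is translated.

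**Figure D1:**
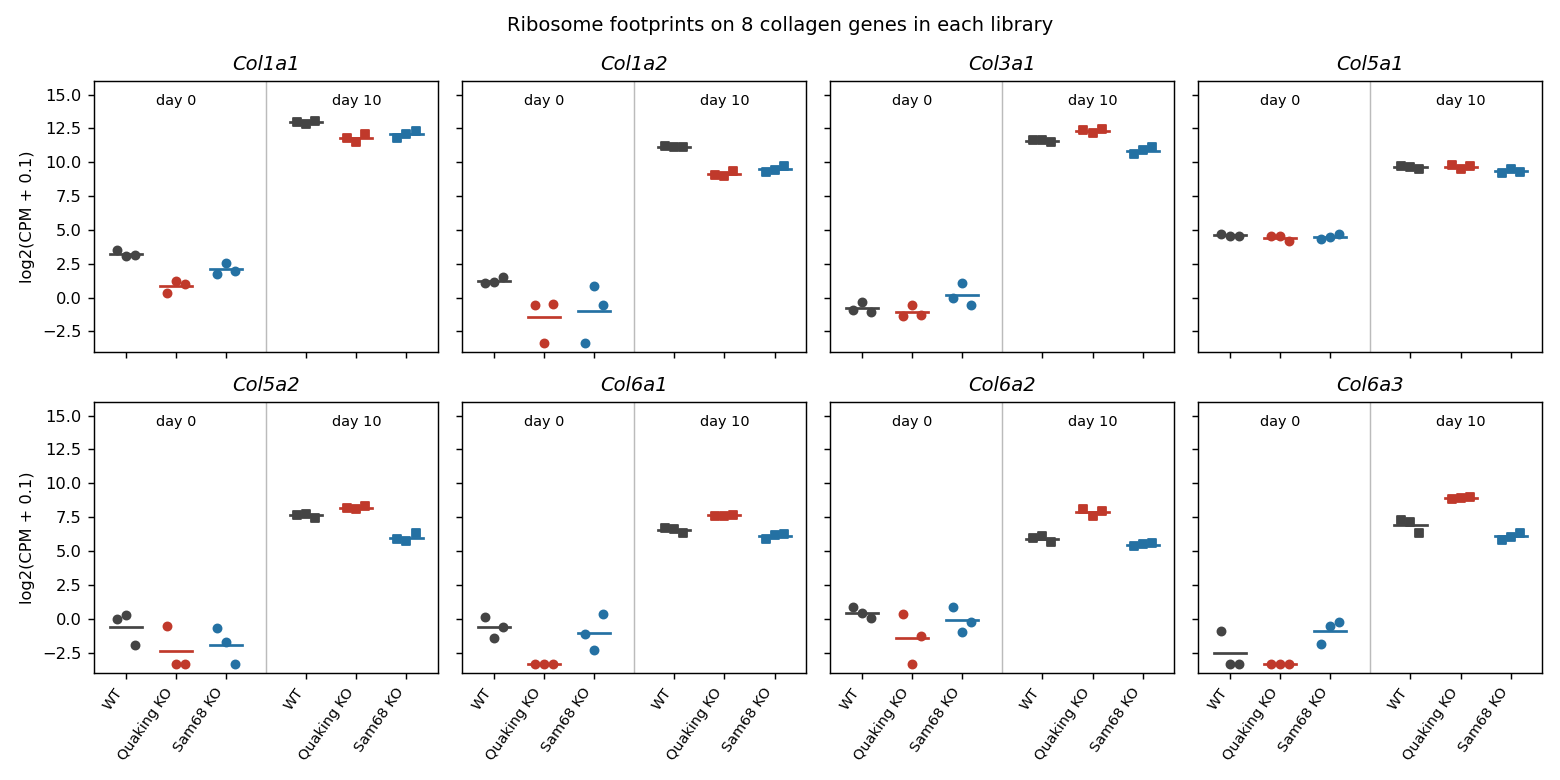
Footprints on each of the 8 collagen genes in all 18 libraries, as log2(CPM + 0.1), with day 0 as circles and day 10 as squares, and a bar at each group's mean on that scale. The day 10 libraries lie above the day 0 libraries of the same line for all 8 genes, and at day 10 the order of the 3 lines differs between type I and type VI chains.

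The type V chain Col5a1, which limits the width of fibrils, was counted in every stem cell library. It had 17.8 to 26.1 CPM over the 9 day 0 libraries, from 41 to 301 counts each, and the means of the lines were 24.5 ± 1.48 in WT, 21.7 ± 3.42 in Quaking KO and 22.5 ± 2.57 CPM in Sam68 KO, with overlapping libraries. Its partner chain Col5a2 had 8 counts or fewer in every day 0 library and none in 3 of them. By day 10 the log2 fold change of Col5a1 was 5.03 (SE 0.16) in WT, 5.25 (SE 0.16) in Quaking KO and 4.84 (SE 0.16) in Sam68 KO. These were the smallest changes of the 8 genes in each line.

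Of the type I chains, Col1a1 was lower in both knockouts than in WT stem cells, and Col1a2 did not pass the threshold in either. Col1a1 measured 11.2, 8.38 and 8.77 CPM in the WT day 0 libraries, 1.19, 2.30 and 1.87 in Quaking KO, and 3.29, 5.82 and 3.84 in Sam68 KO. None of the 3 groups overlapped another in Col1a1. The share of all genes tested that did not overlap at day 0 is not given here. Lack of overlap is therefore a description only for both type I chains. The counts behind these values were 60 to 113 per library in WT, 4 to 6 in Quaking KO and 19 to 58 in Sam68 KO. The log2 fold change from WT was -2.45 (SE 0.26) in Quaking KO, a comparison within pool MIX_1, and -1.10 (SE 0.20) in Sam68 KO. Col1a1 was the 1 gene of the 8 called lower in each comparison at day 0 in edgeR's quasi-likelihood fit, at an adjusted p (Benjamini-Hochberg) below 0.05, where 0.365% of the genes tested were called lower in Quaking KO and 0.642% in Sam68 KO. All 50 genes called in Quaking KO were lower, while the fit of the 2 groups alone called 95 genes, 35.8% of them higher. Without Sam68 KO day 0 replicate 3 Col1a1 was not called in Sam68 KO (log2 fold change -1.02). Col1a2 had 14, 15 and 36 counts in the WT libraries, 2, 0 and 2 in Quaking KO, and 0, 17 and 4 in Sam68 KO, and its libraries in both knockouts lay below all WT libraries in CPM. The log2 fold change of Col1a2 was -2.24 (SE 0.77) in Quaking KO and -1.39 (SE 0.52) in Sam68 KO. It was called in Quaking KO without Sam68 KO day 0 replicate 1 (log2 fold change -2.25) and in Sam68 KO without Sam68 KO day 0 replicate 2 (log2 fold change -2.80), with no filter on low counts (-1.43) and by DESeq2 (-1.38). Both comparisons use the WT day 0 libraries.

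The remaining genes were at the limit of detection at day 0. Col3a1 had 3, 5 and 5 counts in WT, 1 in each Quaking KO library, and 5, 20 and 4 in Sam68 KO. Col6a1 had no count in any Quaking KO library and 1 to 8 in the other 6 libraries. Col6a3 had no count in Quaking KO, 3 counts in WT, all in replicate 1, and 1, 6 and 5 counts in Sam68 KO. Col6a2 had 4, 0 and 1 counts in Quaking KO, 9 to 12 per library in WT and 4 to 10 in Sam68 KO. Without Sam68 KO day 0 replicate 3 Col3a1 was called higher in Sam68 KO than in WT (log2 fold change 1.58), and without WT day 0 replicate 1, which held all WT counts, Col6a3 was as well. No other difference from WT was called in these genes at this depth. The Quaking KO libraries were the shallowest of day 0, with 1373377 to 3019843 counts.

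In differentiating WT cells the log2 fold change ranged from 5.03 in Col5a1 to 12.54 in Col3a1, and the median over the 8 genes was 9.01, against 0.10 over all genes tested. All 8 were called higher at day 10, as were 34.9% of the 13701 genes tested. Col3a1, the sole chain of type III, went from 0.507 ± 0.167 to 3071 ± 212 CPM (n = 3), and the type I chains Col1a1 and Col1a2 from 9.45 ± 1.52 to 7992 ± 737 and from 2.31 ± 0.423 to 2294 ± 79.2 CPM. Col6a3 went from 3 counts to 126 ± 41.4 CPM. Its scaled counts summed over libraries were 1337 times as many (95% counting interval 457 to 6488), and its fitted change was 955-fold. All 3 counts were in WT day 0 replicate 1; without that library the level was at least 388-fold higher, against 3 counts in each remaining library. Without WT day 0 replicate 3 its log2 fold change was 9.02, against 9.90 with all libraries. Col5a2 (log2 fold change 8.30, SE 0.39; 7.56 without WT day 0 replicate 3), Col6a1 (7.29, SE 0.33) and Col6a2 (5.61, SE 0.30) lay between these extremes.

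The 8 genes also rose from day 0 to day 10 in both knockout lines. All 8 genes were called higher at day 10 in Quaking KO, where 34.7% of genes tested were, and in Sam68 KO, where 34.9% were. In Quaking KO, Col5a2 went from 2 counts to 296 ± 27.6 CPM. Its scaled counts summed over libraries were 1241 times as many (counting interval 343 to 10250). Both counts were in Quaking KO day 0 replicate 1, without which the level was at least 223-fold higher; the log2 fold change was 10.12 with all libraries and 9.47 without Quaking KO day 0 replicate 3. Col3a1 went from 3 counts to 5137 ± 457 CPM, 14036 times as many in scaled counts summed over libraries (4803 to 68066). Its fitted log2 fold change was 13.69. Col6a1 and Col6a3 had no count at day 0 and 199 ± 4.51 and 480.3 ± 33.1 CPM at day 10, which is at least 168-fold and at least 406-fold higher when 3 counts are allowed in every day 0 library. Col1a1 had a log2 fold change of 11.00 (SE 0.29) in Quaking KO, from its low day 0 level, 9.94 (SE 0.27) in Sam68 KO and 9.72 (SE 0.26) in WT. In Sam68 KO the type VI chains had the log2 fold changes 7.04 (Col6a1, SE 0.35), 5.63 (Col6a2, SE 0.32) and 6.92 (Col6a3, SE 0.43). Col6a1 was at 6.39 without Sam68 KO day 0 replicate 2 and at 8.29 without replicate 3, and Col6a2 at 6.26 without replicate 1. Libraries of day 0 and day 10 did not overlap for any of the 8 genes in any line; over all genes tested the share whose libraries did not overlap and were higher at day 10 was 34.1% in WT, 34.4% in Quaking KO and 37.1% in Sam68 KO.

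At day 10 Quaking KO embryoid bodies had fewer footprints on type I collagen than WT and more on types III and VI. Between Quaking KO and WT embryoid bodies 2 of the 8 genes were called lower, where 12.8% of genes tested were, and 4 were called higher, where 11.1% were. The median log2 fold change of the 8 was 0.65, against -0.03 over all genes. Libraries of the groups did not overlap for 7 of the 8 genes, 2 lower and 5 higher in Quaking KO; 15.7% of all genes tested were lower without overlap and 15.5% higher. This comparison runs across pools MIX_3 and MIX_2.

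Both type I chains were lower. Col1a1 measured 8165, 7184 and 8627 CPM in WT and 3501, 2933 and 4245 in Quaking KO. Every Quaking KO library thus lay below every WT library, with a log2 fold change of -1.17 (SE 0.18). Col1a2 measured 2382, 2269.9 and 2229.6 CPM in WT and 531, 511 and 666 in Quaking KO. The log2 fold change of Col1a2 was -2.01 (SE 0.34), or 4.03-fold lower, and the groups were again apart.

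Type III collagen moved the other way. Col3a1 measured 3232, 3151 and 2831 CPM in WT and 5291, 4623 and 5498 in Quaking KO, with no overlap and a log2 fold change of 0.74 (SE 0.21). Col5a2, its neighbour on chromosome 1, measured 207, 218 and 176 CPM in WT and 284, 277 and 328 in Quaking KO. Its log2 fold change of 0.55 (SE 0.25) did not pass the threshold, although the groups did not overlap. It passed under DESeq2 (0.62), without a filter on low counts (0.59), in the fit of the 2 groups alone (0.57) and without WT day 0 replicate 3 (0.56). Col5a1 measured 864, 799.98 and 726 CPM in WT and 899.7, 711 and 863 in Quaking KO; these libraries overlapped, and the log2 fold change of 0.05 (SE 0.13) was below 0 without WT day 10 replicate 3 (-0.03), without Quaking KO day 10 replicate 1 (-0.0047) and without the 3 dominated libraries (-0.03).

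All 3 type VI chains were higher in Quaking KO, and unequally so. Col6a1 measured 105, 99.7 and 82.2 CPM in WT and 197, 196 and 204 in Quaking KO, a log2 fold change of 1.03 (SE 0.22). Col6a2 measured 62.5, 67.8 and 51.7 CPM in WT and 272, 195 and 245 in Quaking KO, a log2 fold change of 1.92 (SE 0.22). Col6a3, the long chain of the heterotrimer, measured 159, 140 and 79.9 CPM in WT and 449, 477 and 515 in Quaking KO, a log2 fold change of 1.87 (SE 0.28). The lowest Quaking KO library exceeded the highest WT library for each of the 3 chains. The low Col6a3 value of WT replicate 3 rested on 34 counts. Without the 3 dominated libraries the log2 fold changes of Col6a1, Col6a2 and Col6a3 were 0.95, 1.84 and 1.67, those of Col1a1 and Col1a2 were -1.12 and -2.04, and that of Col3a1 was 0.68; the same 6 of the 8 genes were called.

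**Figure D2:**
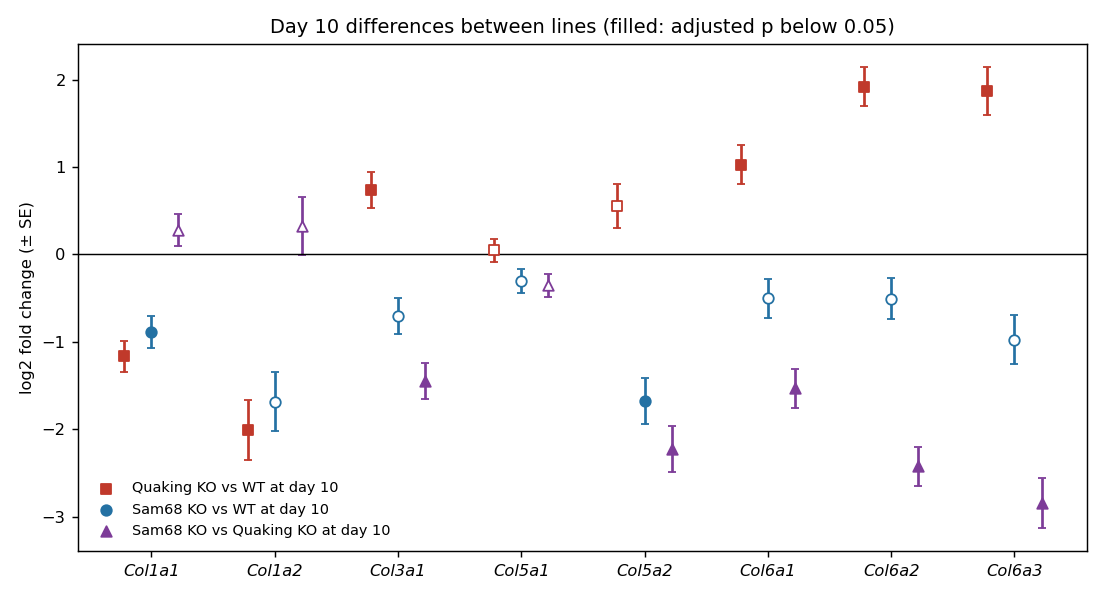
Log2 fold changes of the 8 genes at day 10 with their standard errors, for Quaking KO over WT (squares), Sam68 KO over WT (circles) and Sam68 KO over Quaking KO (triangles). Filled symbols are genes called by edgeR at an adjusted p below 0.05. Col1a1 and Col1a2 are below 0 in both knockouts, while Col3a1 and the type VI chains are above 0 in Quaking KO over WT and below 0 in Sam68 KO over WT; each pair of comparisons shares 1 group of libraries.

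In Sam68 KO embryoid bodies all 8 genes had a log2 fold change below 0 against WT, from -0.31 (Col5a1) to -1.68 (Col1a2). The median was -0.80, against -0.01 over all genes. Col1a1 and Col5a2 were called lower, where 0.102% of the genes tested (14 of 13701) were. For 7 genes there was no overlap of libraries, all of them lower in Sam68 KO, where 5.23% of genes tested were lower without overlap. This comparison also runs from pool MIX_3 to pool MIX_2, and it contains all 3 dominated libraries.

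Col1a1 measured 3582, 4396 and 4975 CPM in Sam68 KO, below all 3 WT libraries, with a log2 fold change of -0.89 (SE 0.18). Col1a2 measured 608, 683 and 853 CPM, again below all WT libraries, and had the larger log2 fold change of -1.68 (SE 0.34) without being called. Col5a2 measured 60.0, 53.5 and 78.7 CPM in Sam68 KO, 3.20-fold lower than WT (log2 fold change -1.68, SE 0.26), and Col5a1 599.9, 724 and 613 CPM (-0.31, SE 0.13). Col3a1 measured 1560, 1875 and 2221 CPM (-0.71, SE 0.21). The type VI chains did not pass the threshold: Col6a1 was at 59.5 to 76.9 CPM (-0.50, SE 0.23), Col6a2 at 41.0 to 47.2 CPM (-0.50, SE 0.23) and Col6a3 at 56.1 to 82.4 CPM (-0.98, SE 0.28). Col6a3 was the gene whose groups overlapped, through WT replicate 3 at 79.9 CPM.

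These calls were sensitive to single libraries. Col1a1 was not called without any 1 of WT day 10 replicates 1 and 2, Sam68 KO day 10 replicates 1 and 2, WT day 0 replicates 2 and 3, Quaking KO day 0 replicates 2 and 3, or Sam68 KO day 0 replicate 3, with log2 fold changes of -0.78 to -0.96. It was also not called in the fit of the 2 groups alone (-0.89), without the 3 dominated libraries (-1.10) or with the replicate number as a block (-0.90). Col5a2 was not called without Sam68 KO day 10 replicate 2 (-1.58), which left none of the 8 called by edgeR. That fit called 10 of all genes tested. Col1a2 was called without WT day 10 replicate 3 (-1.73) and without Sam68 KO day 0 replicate 1 or 2 (-1.68 in both), as well as in the fit of the 2 groups alone (-1.68) and with no filter on low counts (-1.75). Col6a3 was called without WT day 10 replicate 3 (-1.19), and Col3a1 without Sam68 KO day 0 replicate 2 (-0.70). DESeq2 called 5 of the 8, namely Col1a1, Col1a2, Col3a1, Col5a2 and Col6a3. Over all genes it called 74 in either direction, against 24 in the edgeR fit of all libraries. Without the 3 dominated libraries, which leaves 1 Sam68 KO library, all 8 log2 fold changes were below 0, from -0.47 to -1.93.

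The knockouts were compared with each other within pool MIX_3. There, 5 of the 8 genes were called lower in Sam68 KO than in Quaking KO, where 10.6% of genes tested were: Col3a1 (log2 fold change -1.45, SE 0.21), Col5a2 (-2.23, SE 0.26), Col6a1 (-1.53, SE 0.22), Col6a2 (-2.42, SE 0.23) and Col6a3 (-2.84, SE 0.29). For each of these 5 the libraries of the 2 knockouts did not overlap; over all genes tested 15.9% were lower without overlap. Col6a3 differed by 7.16-fold, from 449 to 515 CPM in Quaking KO against 56.1 to 82.4 in Sam68 KO. The type I chains did not pass the threshold, with log2 fold changes of 0.28 (SE 0.18) for Col1a1 and 0.33 (SE 0.33) for Col1a2, and their libraries overlapped. Col5a1 (-0.35, SE 0.13) was called with RLE scaling (-0.45), under DESeq2 (-0.45), with the largest features left out (-0.38), and without WT day 10 replicate 3 (-0.36) or Quaking KO day 10 replicate 2 (-0.46). Over all genes 55.1% of calls were higher in Sam68 KO with TMM scaling and 44.5% with RLE scaling, while the same 5 collagen genes were lower under both.

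Libraries at day 10 can be ordered by CPM as a description, since several of the differences between neighbours did not pass the threshold. For Col1a1 and Col1a2 WT was highest, and the 2 knockouts overlapped below it. For Col3a1, Col5a2, Col6a1 and Col6a2 the Quaking KO libraries had the highest CPM and the Sam68 KO libraries the lowest. Of the steps to and from WT in that order, those of Col3a1, Col6a1 and Col6a2 to Sam68 KO and that of Col5a2 to Quaking KO did not pass the threshold. For Col6a3 WT and Sam68 KO overlapped below Quaking KO. For Col5a1 Quaking KO overlapped both other lines and WT lay just above Sam68 KO, with 726 CPM in the lowest WT library and 724 in the highest Sam68 KO library.

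Ratios between chains within a library do not depend on how libraries are scaled to each other. They are ratios of counts with no correction for coding length, which was not available here, so their size does not give the ratio of chains made; only their differences between groups are read. Within type I, Col1a1 counts over Col1a2 counts were 3.43, 3.16 and 3.87 in the WT day 10 libraries, 6.60, 5.74 and 6.37 in Quaking KO and 5.89, 6.44 and 5.83 in Sam68 KO. Both knockouts lay above WT with no overlap, at means of 6.24 ± 0.446 and 6.05 ± 0.334 against 3.49 ± 0.356, and overlapped each other; both are in pool MIX_3 and WT is not. In WT at day 0 the ratio was 5.50, 4.00 and 3.14, on 14 to 36 counts of Col1a2. In Sam68 KO at day 0 it was 3.41 in replicate 2 and 6.50 in replicate 3, on 17 and 4 counts of Col1a2. The other day 0 libraries had fewer than 3 counts of Col1a2.

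Col3a1 counts over Col1a1 counts, which compares the fibril collagens of types III and I, separated Quaking KO from both other lines. The ratio was 0.396, 0.439 and 0.328 in WT, 1.51, 1.58 and 1.30 in Quaking KO, and 0.435, 0.426 and 0.446 in Sam68 KO. Quaking KO libraries thus stood apart within their own pool as well. At day 0 this ratio was 0.0390 to 0.0833 in WT and 0.154 to 0.345 in Sam68 KO, from 3 to 20 counts of Col3a1 in a library.

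**Figure D3:**
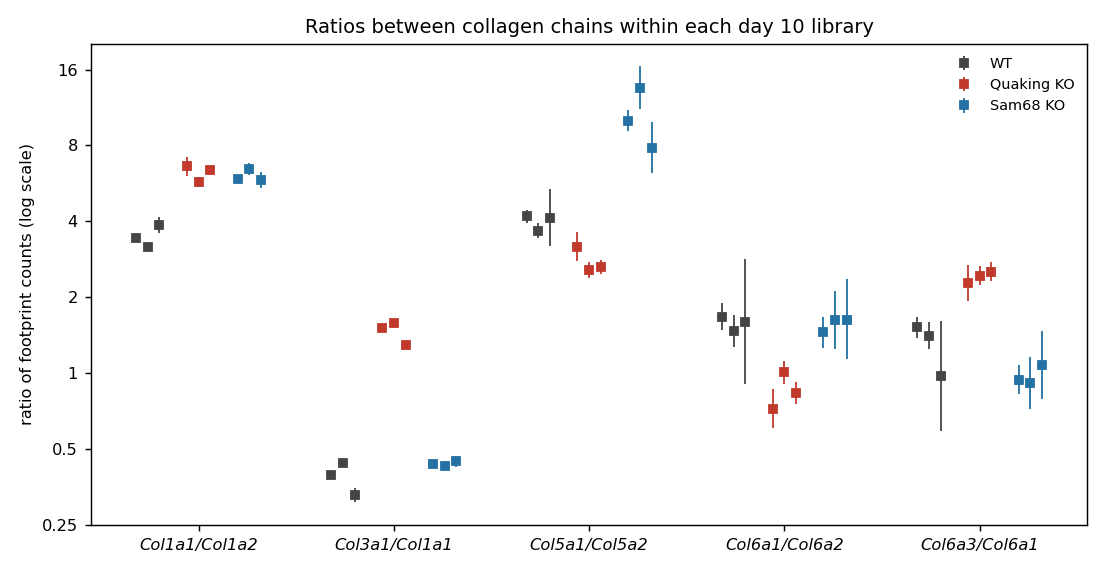
Ratios of footprint counts between pairs of collagen genes in each of the 9 day 10 libraries, on a log scale, with 95% exact binomial counting intervals as bars. Sam68 KO stands apart in Col5a1/Col5a2 and Quaking KO in Col3a1/Col1a1, Col6a1/Col6a2 and Col6a3/Col6a1, while both knockouts lie above WT in Col1a1/Col1a2.

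Type V chains separated all 3 lines. Col5a1 over Col5a2 was 4.18, 3.68 and 4.12 in WT, 3.17, 2.57 and 2.63 in Quaking KO, and 10.00, 13.5 and 7.79 in Sam68 KO. No group overlapped another, and the fitted levels of Quaking KO and Sam68 KO differed 4.69-fold in Col5a2 and 1.28-fold in Col5a1. In stem cells the ratio was higher, at 30.0 in WT replicate 1 (counting interval 13.5 to 82.8), 21.4 in WT replicate 2 (10.6 to 50.3) and 39.3 in Sam68 KO replicate 1 (13.1 to 193). The other day 0 libraries had fewer than 3 counts of Col5a2.

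Within type VI, Col6a1 over Col6a2 was 1.67, 1.47 and 1.59 in WT, 1.45, 1.62 and 1.63 in Sam68 KO, and 0.724, 1.01 and 0.834 in Quaking KO. WT and Sam68 KO overlapped and Quaking KO lay below both. Col6a3 over Col6a1 was 1.52, 1.41 and 0.971 in WT, 2.28, 2.43 and 2.52 in Quaking KO, and 0.943, 0.914 and 1.07 in Sam68 KO. Quaking KO lay above both other lines, and WT overlapped Sam68 KO through WT replicate 3, where a ratio of 0.971 from 34 and 35 counts had a counting interval of 0.588 to 1.60. The neighbours Col3a1 and Col5a2 kept a similar ratio in WT (15.4 ± 0.816) and Quaking KO (17.4 ± 1.10), with no overlap between 14.5 to 16.1 and 16.7 to 18.6, and a higher one in Sam68 KO (29.7 ± 4.71).

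Among 3779 other genes with at least 50 CPM in some day 10 group, those whose log2(CPM + 1) over the 9 day 10 libraries was most like the mean of the 8 collagen genes were ENSMUSG00000054263.11 (Pearson r = 0.925) and ENSMUSG00000052336.7 (r = 0.921). The former had 65.1, 80.3 and 50.9 CPM and the latter 20.9, 147 and 5.78 CPM on average in WT, Quaking KO and Sam68 KO. Quaking KO was thus highest in both, unlike Col1a1 and Col1a2, where WT was highest. The 9 libraries fall into 3 groups, so these correlations mostly follow the group means and are a description only.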

How the data were processed

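The deposited files hold raw counts of ribosome footprints per Ensembl gene, 1 file for each of 18 libraries. The submitters' processing notes name the tools STAR 2.5.3a, Bowtie2 and bcl2fastq 2.17.1.14 and the builds mm10 and GRCm38; how counts were made, on which annotation and with which strand setting, is not given in the sources used here. Sample titles gave group and replicate number, and descriptions gave the pool. The 8 genes and all lists were chosen with earlier results of these data known.

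One fit of all 18 libraries with a mean per group was made with edgeR 4.0.16 (R 4.3.3, TMM scaling, default filter by group, robust quasi-likelihood). It tested 13701 of 33167 genes with a count, two-sided, with Benjamini-Hochberg adjustment over all of them. The procedure was tested on simulated data for Quaking KO against WT at day 10 only. Those data held no change between days, so the test does not cover the other comparisons. The common biological coefficient of variation was 0.229. Each SE is the absolute log2 fold change over the square root of the quasi-likelihood F statistic. Degrees of freedom differ between genes, so calls cannot be read from fold change and SE alone. CPM are counts relative to TMM-scaled library size, with SD taken over the 3 libraries of a group. Count ratios carry 95% exact binomial intervals, which, like the floor of 3 counts, cover counting error only. Replicates differed beyond counting noise in each pair. Chi-square over its degrees of freedom was 5.32 to 21.1 at day 0 and 10.6 to 348 at day 10. The fit used the same spread in all groups for a gene.

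Named were all 8 genes and the 2 others most like their day 10 mean. Lists fixed by symbol (collagen synthesis, processing, partners, receptors, degradation and cell type markers) could not be matched to identifiers and give no result; coding lengths were also not available, so no level is compared between genes and chain ratios are read between groups alone. Alternatives were DESeq2 1.42.0, RLE scaling, testing with no low-count filter, only the groups compared, a replicate block, leaving out each library, leaving out the 3 dominated libraries, and leaving out the largest features (35, the collagens kept).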

Additional observations from a re-analysis of the deposited data

How the results depend on the processing

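The 8 calls between days held under every alternative run in each line, and no called difference changed direction. Between Quaking KO and WT at day 10, 6 to 7 of the 8 genes were called when 1 library was left out, with 2393 to 3452 of all genes. Between the knockouts 5 to 6 were called, with 2389 to 3707 of all genes. For Sam68 KO against WT at day 10, 2 of the 8 were called, where 24 of all genes tested were. The count of 2 became 5 with no filter on low counts (95 of all genes), 5 with DESeq2 (74) and 1 with the replicate block (24). It was 0 to 4 in edgeR when 1 library was left out, with 10 to 53 of all genes called. At day 0 the count of 1 in Sam68 KO (173 of all genes) became 2 with no filter (268) or with DESeq2 (255). With 1 library left out it was 1 to 2 in each knockout. Of all genes, 81 to 228 were then called in Sam68 KO and 21 to 83 in Quaking KO. The replicate block changed no other count by more than 1.5 times; same-numbered WT and Sam68 KO libraries of day 10 deviated together for replicates 1 and 3 (correlations 0.505 and 0.321) and not for replicate 2 (-0.114), and no comparison had all 3 pairs above 0.1, so the number was not taken to pair libraries. Leaving the 10 largest features out of the total moved the summed share to 2.01% in WT, 1.74% in Quaking KO and 1.08% in Sam68 KO at day 10, and to 0.00362% in Quaking KO at day 0. Counts of 0 to 20 in 1 or more libraries limit the day 0 comparisons of all genes but Col5a1. Companion lists by symbol were not run.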
